A study of Homo sapiens with 15 samples.

Results

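The comparison set a human epithelial line carrying active H-RAS against the line it is built on. ARPE19, an established line of human retinal pigment epithelium, was given plasmids step by step, and 6 of the 15 libraries of the series enter here: 3 labelled RasV12 and 3 labelled T53D4. By their labels both lines carry hTERT, the catalytic subunit of telomerase, with p53DD, a dominant negative fragment of p53, on 1 plasmid, and cyclin D1 with CDK4R24C, a CDK4 form that resists its inhibitors, on another. RasV12 carries a pWZL plasmid with H-RasV12 in addition, and the labels call it transformed and T53D4 not transformed. The other 9 libraries, 3 each of ARPE19, MekDD (the shared plasmids plus an active MEK) and AKTmyr (the shared plasmids plus a membrane-bound AKT), served the estimate of the spread, and MekDD and AKTmyr a side comparison.

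All lines grew attached to the dish in DMEM/F12 medium with 10% serum, and poly(A) RNA was sequenced in pairs of reads. Each library came from its own thawed vial, passaged 2 times before extraction, so the spread between replicates is that between vials and cultures. There is 1 line per construct, and no second RasV12 or T53D4 line stands behind a difference between them. Each line has n = 3 libraries, and a log2 fold change is RasV12 minus T53D4 with its standard error (SE) unless another line is named. A gene's level is given as CPM, its read count scaled to a common library size with trimmed-mean factors, in the order of replicates 1, 2 and 3 and with RasV12 first.

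RAS proteins are switches at the inner face of the plasma membrane. With GTP bound they recruit RAF kinases, which activate MEK, which activates the ERK kinases, and the V12 form stays in the GTP state because GTPase-activating proteins can no longer act on it. ERK phosphorylates transcription factors of the ETS and AP-1 families, whose targets include growth factors, proteases and a set of inhibitors that feed back on the pathway, and RAS also acts on PI3 kinase and other effectors. The pigment epithelium is a sheet of joined, pigmented cells behind the retina, and active RAS is known to loosen such sheets in culture.

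Reads on genes ranged from 20.63 to 44.6 M reads in the 6 libraries, and correlations of log2 CPM between libraries of 1 line from 0.9795 to 0.9871 in RasV12 and from 0.9744 to 0.9912 in T53D4. The HRASV12 construct had 331, 325 and 276 CPM in RasV12 and 22.3, 16.6 and 23.4 in T53D4, and T53D4 stood near the untransfected ARPE19 (20.7 ± 6.66 CPM, SD, n = 3). The cyclin D1 construct had 2261, 2488 and 2299.9 CPM in RasV12 and 174, 111 and 153 in T53D4, with 193 ± 41.6 in ARPE19. CDK4R24C had 2405, 2358 and 2379 CPM in RasV12 and 88.7, 82.6 and 105 in T53D4, with 70.7 ± 12.05 in ARPE19. The T53D4 libraries thus lie at the level of untransfected cells for 2 of the 4 labelled constructs, so every direction below is read against the libraries labelled T53D4, and the RasV12 line differs from them in cyclin D1 and CDK4R24C as well as in H-RasV12. These differences cannot be told apart. Retinal pigment epithelium markers were mixed in both lines: OTX2 and KRT8 were abundant, while RPE65 had 1 read in RasV12 and 0 in T53D4. Of the blood, endothelial, fibroblast, glial and neuronal markers in the table, PTPRC, CD14, PECAM1, DCN and SOX10 had at most 21 reads over 3 libraries, and CD68 and PDGFRB were the abundant exceptions. These are bulk libraries, in which fewer cells making a transcript and less of it in each cell cannot be told apart.

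Differences between the lines were broad. Of 13599 genes tested, 1466 were higher in RasV12 (10.8%) and 1847 lower (13.6%) by edgeR's quasi-likelihood test at a Benjamini-Hochberg adjusted p under 0.05, together 24.4% of the genes. At least 2-fold changes numbered 642 higher (4.72%) and 1079 lower (7.93%). The median log2 fold change of all genes was 0.01, and with no test 2661 genes (19.6%) had all 3 RasV12 libraries above all 3 of T53D4 and 2789 (20.5%) all 3 below. With the replicate number as a block 2259 genes were higher (16.6%) and 2607 lower (19.2%). Counts for gene groups below are read against these shares and cover the members that passed the filter on low counts, some of them only through the line in which they are high. The direction of such members is set in part by the filter and is not evidence about their group. A count whose share lies near 24.4% is not read as a result about its group. Of the calls, 855 higher and 1134 lower were made again in every fit with 1 of the 6 libraries left out.

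**Figure D1:**
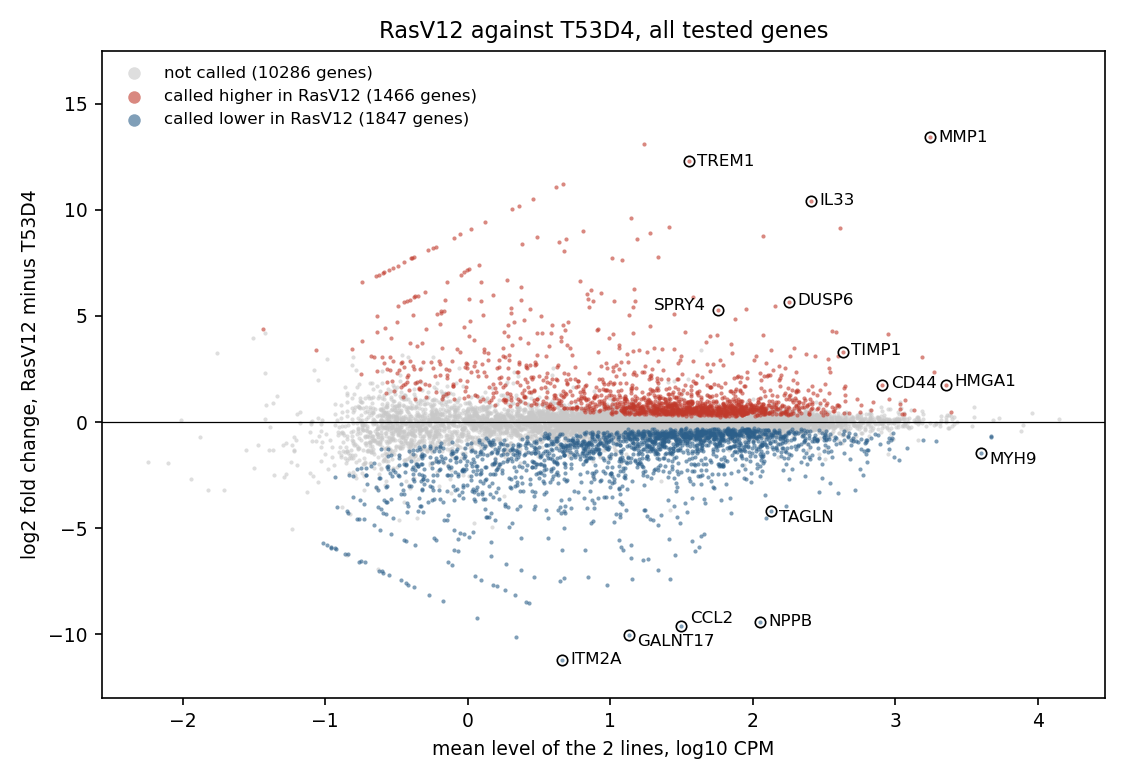
Log2 fold change of RasV12 against T53D4 (vertical axis) over the mean level of the 2 lines in log10 CPM (horizontal axis), 1 point per tested gene, coloured by call. Named genes are ringed: MMP1 and HMGA1 combine a rise with a high level, and MYH9 is the most abundant of the ringed genes that fell.

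The RAS pathway itself was examined first. HRAS (ENSG00000174775, chr11:532242-537287, build hg38) stood at 433, 471 and 379 CPM in RasV12 and 47.4, 41.7 and 50.7 in T53D4. All 3 RasV12 libraries lay above all of T53D4, with a log2 fold change of 3.20 ± 0.23 SE (edgeR, Benjamini-Hochberg adjusted p = 6.17e-07), on a gene whose reads cannot be separated from those of the construct. The MEK genes MAP2K1 (156, 108 and 125 against 144, 90.3 and 138 CPM) and MAP2K2 (205, 225 and 176 against 188, 179.9 and 191 CPM) overlapped between the lines. The ERK gene MAPK3 (74.2, 73.9 and 68.3 against 71, 87.8 and 85.9 CPM) overlapped as well, and none of these 3 genes was called.

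Of the 23 pathway genes, 2 rose and 6 fell, with 15 not called (median log2 -0.04). The falls lay mainly in RAS relatives, scaffolds and exchange factors. RRAS2, a RAS relative, had 101, 117 and 91.1 CPM in RasV12 and 163, 238 and 231 in T53D4, and MRAS, which helps release RAF from inhibition, 14.96, 27.6 and 24.5 against 48.3, 51.2 and 35.6 CPM. KSR1, a scaffold that holds RAF, MEK and ERK together, had 1.93, 1.96 and 2.03 against 10.6, 6.77 and 5.38 CPM. RASGRP3, which loads RAS with GTP, had 1.24, 3.62 and 1.22 against 8.32, 20.05 and 11.95 CPM. The groups did not overlap for these 4 genes, whose log2 fold changes were -1.03, -1.01, -1.94 and -2.69 (edgeR, Benjamini-Hochberg adjusted p = 0.00272, 0.00529, 0.00068 and 0.000914). RASGRP3 moved to -3.45 without RasV12 replicate 2, its highest RasV12 library.

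Genes that switch RAS off gave more rises. Among 12 tested GTPase-activating and RAF-inhibitory genes 5 rose and 1 fell, with 6 not called. RASA1, a RAS GTPase-activating protein, had 124, 107 and 98.2 CPM in RasV12 and 43.4, 41.1 and 33.1 in T53D4, RASA2 had 44.1, 27.5 and 25.6 against 16.7, 17.3 and 15.8 CPM and RASA3 60.7, 46.5 and 47.7 against 27.04, 19.6 and 18.9 CPM. All 3 separated the lines, with log2 fold changes of 1.49 ± 0.22 SE, 0.96 ± 0.20 SE and 1.24 ± 0.19 SE (edgeR, Benjamini-Hochberg adjusted p = 0.000274, 0.00258 and 0.000329). NF1, the best known member of the class, overlapped between the lines (80.4, 89.03 and 97.3 against 67.4, 96.9 and 95.8 CPM). RIN1, an effector that competes with RAF for RAS, had 56.9, 58.2 and 34.99 against 21.9, 25.99 and 28 CPM (log2 0.98 ± 0.20 SE, edgeR, Benjamini-Hochberg adjusted p = 0.00234).

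Phosphatases of the MAP kinases split into rises and falls. DUSP6 (ENSG00000139318, chr12:89347235-89352501), which removes the activating phosphates from ERK, had 347, 302 and 403 CPM in RasV12 and 8.15, 6.27 and 6.57 in T53D4. The RasV12 libraries lay far above those of T53D4, with a log2 fold change of 5.65 ± 0.22 SE (edgeR, Benjamini-Hochberg adjusted p = 3.48e-09). DUSP4 and DUSP5, which act on ERK in the nucleus, had 235, 322 and 193 against 41.04, 62.7 and 75.6 CPM and 162, 253 and 180.4 against 32.1, 48.8 and 49.3 CPM. Both rose, by 2.07 ± 0.29 SE and 2.19 ± 0.29 SE on the log2 scale (edgeR, Benjamini-Hochberg adjusted p = 0.000154 and 0.000106).

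DUSP8 and DUSP16, which prefer the stress kinases JNK and p38, fell. DUSP8 had 8.87, 9.05 and 7.16 CPM in RasV12 and 30.7, 27.7 and 23 in T53D4 and DUSP16 35.3, 35.5 and 52.4 against 63.6, 94.2 and 72.05 CPM, with log2 fold changes of -1.70 ± 0.21 SE and -0.90 ± 0.21 SE (edgeR, Benjamini-Hochberg adjusted p = 5.26e-05 and 0.0068). DUSP1, an early gene with broad action, had 157, 159 and 167 against 375, 324 and 291 CPM (log2 -1.03 ± 0.28 SE, edgeR, Benjamini-Hochberg adjusted p = 0.015, and 0.0508 without T53D4 replicate 1). Of the 11 phosphatases, 3 rose and 5 fell, with 3 not called, with a median of -0.53. DUSP7, the close relative of DUSP6, was not among the calls (44.4, 41.4 and 42.5 against 43.95, 32.6 and 31.7 CPM).

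Sprouty and SPRED proteins, which block RAS activation below receptors, were examined together with other receptor inhibitors. Of 11 tested members of the feedback list, 7 rose and 2 fell, with 2 not called (median 0.83), and all 7 rises were called again in every fit with 1 library left out. SPRY4 (ENSG00000187678, chr5:142310427-142326455) had 148, 100.3 and 83.3 CPM in RasV12 and 4.31, 2.56 and 1.57 in T53D4, and SPRY2 139, 107 and 111 against 30.4, 28.4 and 25.8 CPM. Their log2 fold changes were 5.28 ± 0.39 SE and 2.08 ± 0.14 SE (edgeR, Benjamini-Hochberg adjusted p = 7.01e-07 and 5.37e-07). SPRED1, SPRED2 and SPRED3 had 100.4, 74.7 and 74.7 against 48.8, 41.6 and 56.95 CPM, 83.3, 76.8 and 75.9 against 49.4, 40.4 and 42.9 CPM and 25.99, 31.3 and 36.7 against 8.32, 7.16 and 6.9 CPM. The largest of the SPRED rises was that of SPRED3, 2.07 ± 0.18 SE, with 0.83 ± 0.11 SE for SPRED2 and 0.76 ± 0.19 SE for SPRED1 (edgeR, Benjamini-Hochberg adjusted p = 3.01e-06, 0.000118 and 0.0081).

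ERRFI1, which inhibits the EGF receptor, had 297, 182 and 175 CPM in RasV12 and 64.2, 38.9 and 36.9 in T53D4, and PHLDA1, a target of ERK signalling, 785, 689 and 654 against 53.8, 75.8 and 118 CPM. They rose by 2.22 ± 0.27 SE and 3.11 ± 0.28 SE on the log2 scale (edgeR, Benjamini-Hochberg adjusted p = 4.33e-05 and 4.64e-06). LRIG1, another receptor inhibitor, was lower, with 7.37, 5.41 and 4.82 against 27.9, 14.8 and 11.9 CPM (log2 -1.63 ± 0.43 SE, edgeR, Benjamini-Hochberg adjusted p = 0.0134), and lost its call without RasV12 replicate 2, RasV12 replicate 3 or T53D4 replicate 1 (adjusted p 0.0514, 0.0517 and 0.0705). SPRY1 did not pass the test and ranged widely in both lines (4.02, 2.36 and 1.13 against 6.91, 1.21 and 1.81 CPM).

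**Figure D2:**
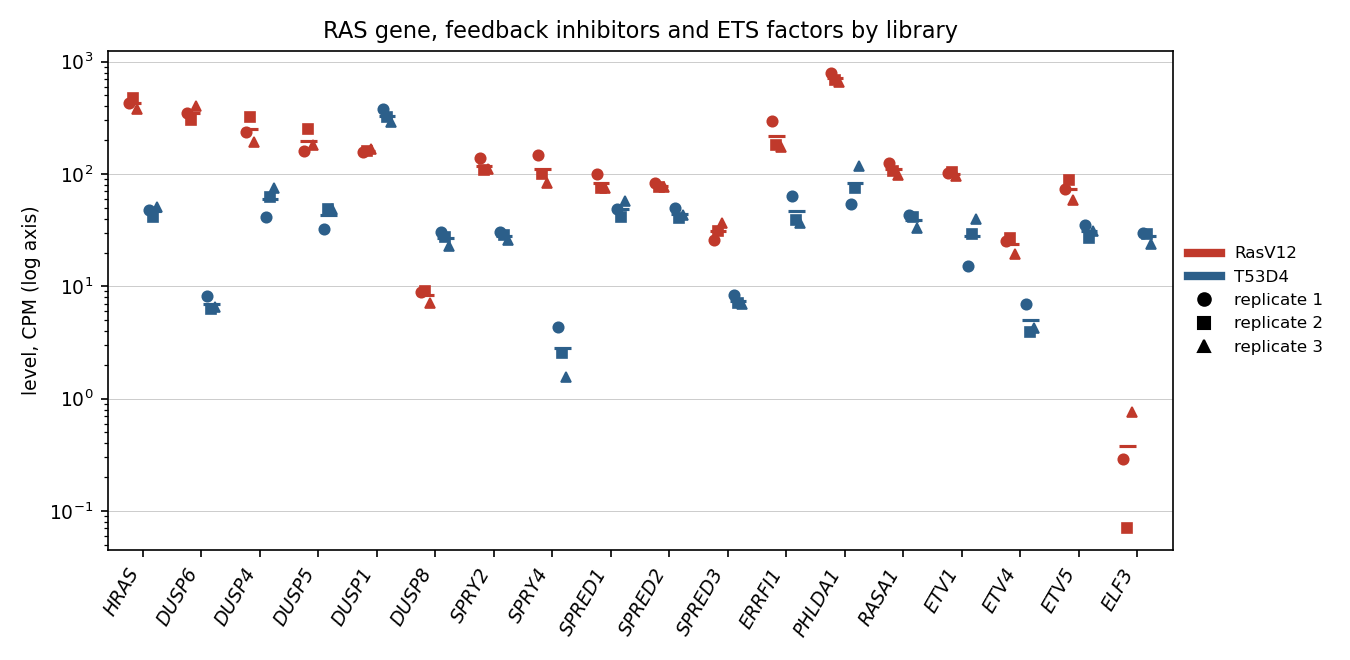
Level in CPM on a log axis of HRAS, 12 feedback genes, RASA1 and 4 ETS factor genes in each library of RasV12 (red) and T53D4 (blue), with symbols for the replicate and a bar for the mean of 3. DUSP6 and SPRY4 lie well apart between the lines in every library, whereas DUSP1, DUSP8 and ELF3 lie higher in T53D4.

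Transcription factors that ERK acts on followed. The PEA3 group of ETS factors, known to be induced by ERK, rose in full: ETV1 had 101, 104 and 95.8 CPM in RasV12 and 15.1, 29.2 and 39.7 in T53D4, ETV4 25.3, 26.9 and 19.5 against 6.95, 3.88 and 4.29 CPM and ETV5 72.8, 88.1 and 59.1 against 35.2, 27.2 and 31.2 CPM. Their log2 fold changes were 1.85 ± 0.29 SE, 2.25 ± 0.38 SE and 1.24 ± 0.28 SE (edgeR, Benjamini-Hochberg adjusted p = 0.000421, 0.000731 and 0.00559). ELK3, a partner of serum response factor, rose too (283, 241 and 205 against 111, 78.8 and 96.7 CPM, log2 1.35 ± 0.19 SE, edgeR, Benjamini-Hochberg adjusted p = 0.000146). ELF3, an ETS factor of epithelia, was nearly lost, with 0.292, 0.0709 and 0.765 against 29.99, 29.5 and 24 CPM (log2 -6.41 ± 0.85 SE, edgeR, Benjamini-Hochberg adjusted p = 0.000104, and from -7.39 without RasV12 replicate 3 to -5.75 without RasV12 replicate 2). Of 18 ETS genes 6 rose and 4 fell, with 8 not called, and ETS1 and ETS2 were among those that did not pass.

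Of 23 AP-1 and immediate early genes 12 rose and 6 fell, with 5 not called, and the median was 0.46. The FOS side split. FOSL1, the FOS relative most tied to sustained ERK activity, had 307, 211 and 173 CPM in RasV12 and 132, 90.5 and 107 in T53D4, while FOSL2 had 185, 155 and 212 against 414, 284 and 318 CPM. The first rose by 1.07 ± 0.23 SE and the second had a log2 fold change of -0.88 ± 0.18 SE (edgeR, Benjamini-Hochberg adjusted p = 0.00405 and 0.00285). FOSB was low in both lines but separate (8.5, 7.54 and 11.3 against 2.46, 3.34 and 2.48 CPM, log2 1.71 ± 0.32 SE, edgeR, Benjamini-Hochberg adjusted p = 0.00161).

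On the JUN side, JUN had 400.1, 371 and 339 CPM in RasV12 and 248, 257 and 304 in T53D4 and JUND 194, 193 and 175 against 340.2, 321 and 275 CPM, with log2 fold changes of 0.46 ± 0.11 SE and -0.74 ± 0.18 SE (edgeR, Benjamini-Hochberg adjusted p = 0.00938 and 0.00938). The JUN call was lost with the 2 lines fitted alone (adjusted p 0.0501), and JUNB overlapped (84.3, 51.5 and 115 against 151, 45.5 and 31.2 CPM). MAFF, a small MAF protein, had 70.5, 52.8 and 81.2 against 34.98, 22.95 and 25.3 CPM and IER2, an immediate early gene, 201, 152 and 166 against 86.5, 37.9 and 45.9 CPM. Both rose, by 1.30 ± 0.23 SE and 1.61 ± 0.31 SE (edgeR, Benjamini-Hochberg adjusted p = 0.00091 and 0.00181). ATF3, a stress factor of the same family, was lower (9.45, 13.99 and 10.5 against 27.4, 32.7 and 22.2 CPM, log2 -1.27 ± 0.30 SE, edgeR, Benjamini-Hochberg adjusted p = 0.00605), as was KLF6 (99.6, 70.6 and 66.5 against 144, 133 and 122 CPM).

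AP-1 binds the letters TGANTCA, and these were looked for in the 250 bases before the start of each gene in RefSeq's promoter table (build GRCh38.p14), which matched 10902 of the 13599 tested genes. The letters were present in 1801 of all 27305 promoters of the table (6.6%), in 435 of the tested genes (3.99%), in 36 of 492 genes that rose at least 2-fold (7.32%) and in 37 of 783 that fell at least 2-fold (4.73%). An ETS sequence, CCGGAAG on either strand, was in 2407 of the table's promoters (8.82%) and 1676 of the tested ones (15.4%), against 30 of the 492 (6.1%) and 38 of the 783 (4.85%). A match is a description of the letters, not a binding site. The motif TGANTCA reads the same on both strands and does not overlap the ETS letters, and the following promoters are shown because the genes are among the secreted and feedback genes whose values follow or were just given. Each run is the 250 bases before the start, 5′ to 3′ on the gene's strand, with TGANTCA in capitals.
MMP10: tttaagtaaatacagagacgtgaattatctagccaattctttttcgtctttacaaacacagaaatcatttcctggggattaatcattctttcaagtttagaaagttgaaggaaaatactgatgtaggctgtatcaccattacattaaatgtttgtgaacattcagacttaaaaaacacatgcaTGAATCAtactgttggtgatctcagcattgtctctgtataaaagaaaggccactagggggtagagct
PLAUR: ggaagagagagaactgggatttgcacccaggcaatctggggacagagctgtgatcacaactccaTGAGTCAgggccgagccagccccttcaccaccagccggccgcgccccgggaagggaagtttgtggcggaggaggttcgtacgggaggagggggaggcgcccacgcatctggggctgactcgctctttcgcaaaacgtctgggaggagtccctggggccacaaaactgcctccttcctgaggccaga
CXCL8: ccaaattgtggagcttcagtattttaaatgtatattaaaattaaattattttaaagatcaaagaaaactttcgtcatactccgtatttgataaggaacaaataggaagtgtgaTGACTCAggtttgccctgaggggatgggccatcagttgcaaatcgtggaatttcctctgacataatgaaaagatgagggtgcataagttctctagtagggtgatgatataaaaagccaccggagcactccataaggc
SERPINB2: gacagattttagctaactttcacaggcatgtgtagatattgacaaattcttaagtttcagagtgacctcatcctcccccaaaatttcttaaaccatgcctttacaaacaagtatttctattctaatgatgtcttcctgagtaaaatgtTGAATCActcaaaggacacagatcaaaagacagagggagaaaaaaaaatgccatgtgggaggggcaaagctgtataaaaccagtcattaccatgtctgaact
LAMA3: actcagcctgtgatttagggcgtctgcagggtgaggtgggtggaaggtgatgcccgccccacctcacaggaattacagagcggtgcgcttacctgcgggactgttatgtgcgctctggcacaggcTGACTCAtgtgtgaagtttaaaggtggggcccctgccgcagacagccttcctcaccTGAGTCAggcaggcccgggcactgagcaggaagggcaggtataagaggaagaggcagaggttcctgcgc
DUSP6: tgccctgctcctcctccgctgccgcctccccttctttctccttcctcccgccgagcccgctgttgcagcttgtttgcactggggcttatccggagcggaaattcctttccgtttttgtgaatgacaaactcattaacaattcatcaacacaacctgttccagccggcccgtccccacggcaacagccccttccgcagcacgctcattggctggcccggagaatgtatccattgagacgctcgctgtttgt
These are chr11:102780629-102780878 on the minus strand, chr19:43670170-43670419 on the minus strand, chr4:73740319-73740568, chr18:63887455-63887704 and chr18:23872770-23873019 on the plus strand, and chr12:89352502-89352751 on the minus strand. The match ends 61 bases before the start in MMP10, 180 in PLAUR, 131 in CXCL8 and 96 in SERPINB2, all of which rose. The calls of CXCL8 and SERPINB2 were lost without RasV12 replicate 3. LAMA3, which fell, holds 2 matches, ending 119 and 63 bases before its start. DUSP6, which rose, has none in this window.

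Ligands and receptors of the EGF family were read next. Of 11 EGF receptor family genes, 4 rose and 3 fell, with 4 not called, the rises being the ligand genes TGFA, AREG, BTC and NRG2 and the falls the receptor genes EGFR, ERBB2 and ERBB4. NRG2, a ligand of ERBB3 and ERBB4, had 18.9, 18.04 and 16.5 CPM in RasV12 and 1.44, 3.28 and 4.33 in T53D4, and AREG, a ligand of EGFR, 2.77, 2.48 and 5.04 against 0.274, 0.0868 and 0.19 CPM. They rose by 2.57 ± 0.36 SE and 4.26 ± 0.66 SE on the log2 scale (edgeR, Benjamini-Hochberg adjusted p = 0.000148 and 0.000337). TGFA, another EGFR ligand, had 124, 111 and 81.8 against 62.2, 26.4 and 33.05 CPM (log2 1.38 ± 0.41 SE, edgeR, Benjamini-Hochberg adjusted p = 0.0234), with the call lost without RasV12 replicate 1 or 2 or T53D4 replicate 2 or 3 (adjusted p 0.0699, 0.0583, 0.0966 and 0.0811).

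Of the receptors, ERBB2, ERBB4 and EGFR fell and ERBB3 was not called. ERBB2 had 46.2, 39.9 and 46.7 CPM in RasV12 and 82.7, 67.8 and 79.6 in T53D4 and ERBB4 0.694, 0.662 and 0.991 against 5.75, 12 and 10.8 CPM, with log2 fold changes of -0.79 ± 0.13 SE and -3.62 ± 0.61 SE (edgeR, Benjamini-Hochberg adjusted p = 0.00045 and 0.000678). EGFR had 197, 193 and 218 against 236, 348 and 432 CPM (log2 -0.74 ± 0.20 SE, edgeR, Benjamini-Hochberg adjusted p = 0.0138), with the call lost without RasV12 replicate 1, RasV12 replicate 2 or T53D4 replicate 3 (adjusted p 0.0511, 0.0513 and 0.0738). Among 17 other receptor tyrosine kinases 1 rose and 7 fell, with 9 not called (median -0.65). ROR1, a WNT5A receptor, had 3.32, 2.91 and 5.72 against 28.2, 31.8 and 31.05 CPM, DDR1, a collagen receptor, 23.7, 25.01 and 38.8 against 80.6, 80.6 and 67.5 CPM and PDGFRB, the PDGF-BB receptor, 28.2, 23 and 35.6 against 116, 101 and 81.8 CPM. These 3 had log2 fold changes of -2.95 ± 0.28 SE, -1.39 ± 0.29 SE and -1.79 ± 0.44 SE (edgeR, Benjamini-Hochberg adjusted p = 8.22e-06, 0.00293 and 0.0093).

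Among 26 other growth factor genes 5 rose and 5 fell, with 16 not called. With the replicate block 8 rose and 5 fell. MDK, the heparin-binding factor midkine, had 16.97, 21.1 and 17.2 CPM in RasV12 and 5.44, 5.81 and 4.19 in T53D4, and FGF13, an FGF relative that stays inside the cell, 6.53, 8.72 and 9.86 against 1.23, 2.19 and 1.86 CPM. Both rose, by 1.83 ± 0.33 SE and 2.24 ± 0.44 SE (edgeR, Benjamini-Hochberg adjusted p = 0.00107 and 0.00213). The neurotrophin BDNF fell (33.3, 31.8 and 28.5 against 77.8, 68.7 and 53.1 CPM, log2 -1.09 ± 0.21 SE, edgeR, Benjamini-Hochberg adjusted p = 0.00153). PDGFB had 2.41, 1.51 and 1.76 against 72.7, 15.3 and 10.5 CPM, with T53D4 replicate 1 far above the others, and its log2 fold change of -4.12 ± 0.88 SE (edgeR, Benjamini-Hochberg adjusted p = 0.0035) became -2.76 without that library. VEGFA, the main angiogenic factor, overlapped between the lines (323, 202 and 308 against 329.7, 103 and 97.4 CPM).

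Matrix proteases included MMP1, which had the largest fitted rise of all called genes. MMP1 (ENSG00000196611, chr11:102789919-102798160), the collagenase that opens fibrillar collagen, had 2155, 3249 and 5088 CPM in RasV12 and 0.308, 0.195 and 0.524 in T53D4. It was near 0 in every T53D4 library and had the highest level per length of any gene that rose at least 2-fold (1774 FPKM, a level scaled by gene length and library size, against 0.174), with a log2 fold change of 13.43 ± 0.86 SE (edgeR, Benjamini-Hochberg adjusted p = 4.23e-07). Its neighbours on chromosome 11 followed. MMP3, stromelysin, had 30.95, 814 and 1624 against 0.0342, 0.26 and 4.76 CPM, with replicate 1 far below the other RasV12 libraries. The log2 fold change was 9.13 ± 1.97 SE (edgeR, Benjamini-Hochberg adjusted p = 0.00391) and was 8.18 without RasV12 replicate 3 and 8.52, 8.50 and 12.23 without T53D4 replicates 1, 2 and 3. MMP10 had 0.803, 0.615 and 2.16 against 0, 0 and 0 CPM and, against the floor of 3 reads over the T53D4 libraries, was at least 33.5-fold higher.

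The membrane-bound proteases and the inhibitors split. MMP14, which activates MMP2 at the surface, had 1382, 1444 and 1881 CPM in RasV12 and 959, 776 and 552 in T53D4 (log2 1.04 ± 0.27 SE, edgeR, Benjamini-Hochberg adjusted p = 0.0114, and 0.0516 without T53D4 replicate 3). MMP15 and MMP24, of the same membrane class, had 18.4, 22.3 and 38.8 against 126, 141 and 128 CPM and 4.82, 6.31 and 5.94 against 75.9, 76.9 and 53.9 CPM, and MMP2 itself 10.3, 10.8 and 16.8 against 51.96, 33.2 and 22.9 CPM. All 3 fell, with log2 fold changes of -2.31 ± 0.46 SE, -3.60 ± 0.52 SE and -1.52 ± 0.37 SE (edgeR, Benjamini-Hochberg adjusted p = 0.00211, 0.000205 and 0.00796).

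Of the tissue inhibitors, TIMP1 had 674, 529 and 1127 CPM in RasV12 and 69.6, 85.2 and 82.6 in T53D4, TIMP2 261, 308 and 436 against 615, 915 and 908 CPM and TIMP3 50.7, 68.3 and 52.5 against 272, 265 and 276 CPM. TIMP1 rose by 3.29 ± 0.28 SE and the other two had log2 fold changes of -1.28 ± 0.24 SE and -2.24 ± 0.25 SE, each with no overlap between the lines (edgeR, Benjamini-Hochberg adjusted p = 2.36e-06, 0.00137 and 2.25e-05). Over the 17 tested genes of the family 6 rose and 6 fell, with 5 not called (median -0.68). MMP10 had 0 reads in T53D4, and its RasV12 libraries alone meet the filter on low counts, so its direction is not evidence about the family. The untested MMP7, MMP9, MMP12 and MMP17 had at most 23 reads in either line.

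Other surface proteases split as well. Among 20 ADAM and ADAMTS genes 3 rose and 7 fell, with 10 not called. The fit with the replicate block gave 3 rises and 12 falls. ADAM8, a sheddase of leukocytes and tumour cells, had 21.1, 11.7 and 7.65 CPM in RasV12 and 0.274, 0.152 and 0.19 in T53D4, and ADAM23, which lacks protease activity, 17.6, 17.2 and 20.6 against 1.27, 1.15 and 1.14 CPM. ADAMTS5 and ADAMTS15, which cut aggrecan-type proteoglycans, had 1.17, 1.39 and 0.63 against 82.8, 43.2 and 25.5 CPM and 3.36, 1.94 and 5.4 against 22.8, 10.7 and 12.5 CPM. The 2 rises were 6.04 ± 0.52 SE and 3.96 ± 0.22 SE and the 2 falls -5.52 ± 0.73 SE and -2.13 ± 0.41 SE on the log2 scale (edgeR, Benjamini-Hochberg adjusted p = 3.01e-06, 1.13e-07, 0.000104 and 0.00171).

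The plasminogen system gave 7 rises and 1 fall among 16 genes (median 0.77). Fitted with the replicate block, 8 rose and 3 fell. PLAUR, the urokinase receptor, had 228, 155 and 176 CPM in RasV12 and 51.7, 29.2 and 32.2 in T53D4, and SERPINE2, a thrombin and urokinase inhibitor, 69.9, 54.3 and 91.6 against 18.5, 13.4 and 17.95 CPM. They rose by 2.30 ± 0.27 SE and 2.11 ± 0.38 SE (edgeR, Benjamini-Hochberg adjusted p = 3.83e-05 and 0.00117). SERPINB2, a second plasminogen activator inhibitor, had 3.5, 4.28 and 74.2 against 0.377, 2.21 and 1.76 CPM, and its rise of 4.21 ± 1.09 SE (edgeR, Benjamini-Hochberg adjusted p = 0.0118) fell to 1.41 with no call (adjusted p 0.186) without RasV12 replicate 3, and was 3.49 with the replicate block. KLK11, a kallikrein, was the fall (0, 0 and 0.18 against 8.73, 9.44 and 8.33 CPM, log2 -7.50 ± 0.79 SE, edgeR, Benjamini-Hochberg adjusted p = 1.53e-05), with -6.69 and -11.20 without RasV12 replicates 2 and 3.

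Of 9 tested interleukin-1 family genes 4 rose and 2 fell, with 3 not called, and 3 and 1 of these rises and falls were called in every fit with 1 library left out. IL33 (ENSG00000137033, chr9:6215786-6257983), a nuclear cytokine of barrier cells, had 339, 235 and 955 CPM in RasV12 and 0.205, 0.282 and 0.714 in T53D4, IL1B 64.8, 109 and 535 against 0.89, 0.412 and 0.333 CPM and IL1A 2.88, 2.77 and 9.19 against 0.548, 0.304 and 0.238 CPM. In these 3 genes all RasV12 libraries lay above all of T53D4, and RasV12 replicate 3 was the highest. The log2 fold changes were 10.44 ± 0.76 SE, 8.75 ± 0.91 SE and 3.73 ± 0.60 SE (edgeR, Benjamini-Hochberg adjusted p = 6.42e-07, 1.36e-05 and 0.000463), and 9.61, 7.31 and 2.94 without RasV12 replicate 3. IL18 moved the other way, with 20.2, 20.5 and 17.97 against 102, 138 and 78.7 CPM (log2 -2.44 ± 0.31 SE, edgeR, Benjamini-Hochberg adjusted p = 7.55e-05).

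Among 20 chemokine and IL6 family genes 8 rose and 4 fell, with 8 not called (median 0.32), and 4 and 3 were called in every fit with 1 library left out. CXCL3 and CXCL2, which attract neutrophils, had 46.6, 28.1 and 152 CPM in RasV12 and 1.4, 1.04 and 1.38 in T53D4, and 7.19, 3.29 and 31.4 against 0.445, 0.282 and 0.238 CPM. They rose by 5.90 ± 0.58 SE and 5.41 ± 0.77 SE (edgeR, Benjamini-Hochberg adjusted p = 9.38e-06 and 0.000187), and by 4.88 and 3.999 without RasV12 replicate 3. CXCL8, the same class, had 78.99, 95.5 and 1899 against 23.5, 45.8 and 35.05 CPM, with replicate 3 far above the other RasV12 libraries. Its rise of 4.31 ± 1.01 SE (edgeR, Benjamini-Hochberg adjusted p = 0.00656) became 1.33 (adjusted p 0.0512) without that library.

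CCL2, the monocyte attractant, was nearly silent in RasV12, with 0.0365, 0.0236 and 0.225 CPM in RasV12 and 103, 58.3 and 28.3 in T53D4, and ACKR3, a scavenger receptor for CXCL12, had 1.97, 1.18 and 0.991 against 121, 80.96 and 47.5 CPM. Both separated the lines in every library, with log2 fold changes of -9.60 ± 1.15 SE and -5.91 ± 0.51 SE (edgeR, Benjamini-Hochberg adjusted p = 4.24e-05 and 3.36e-06). CCL2 ranged from -10.92 to -8.97 when RasV12 replicate 3 or replicate 2 was left out. Genes of the NF-kB pathway, which many of these cytokines answer to, gave 1 rise and 0 falls among 17 (median -0.14), the rise being IRAK2 (15.4, 18.5 and 51.5 against 9.41, 10.4 and 8.9 CPM, and log2 0.82 without RasV12 replicate 3). The RasV12 libraries stood apart here: the list's medians against the T53D4 mean were -0.48, -0.89 and 0.53 in replicates 1, 2 and 3, and its summed level ran from 531 to 1382 CPM in RasV12 and from 684 to 1186 in T53D4. In the blocked fit the counts were 1 and 1. Outside these lists, TREM1, a receptor of myeloid cells, had 77.5, 37.8 and 98.2 against 0.0342, 0 and 0 CPM, with 1 read in all of T53D4 and a ratio of 6187 (95% interval 1110.0 to 244410.0, counting error only). Of the blood markers, CD68 was called higher in RasV12 (283, 315 and 344 against 84, 162 and 181 CPM). PTPRC, CD14 and LYZ had 4, 5 and 7 reads in RasV12 and 4, 3 and 0 in T53D4.

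**Figure D3:**
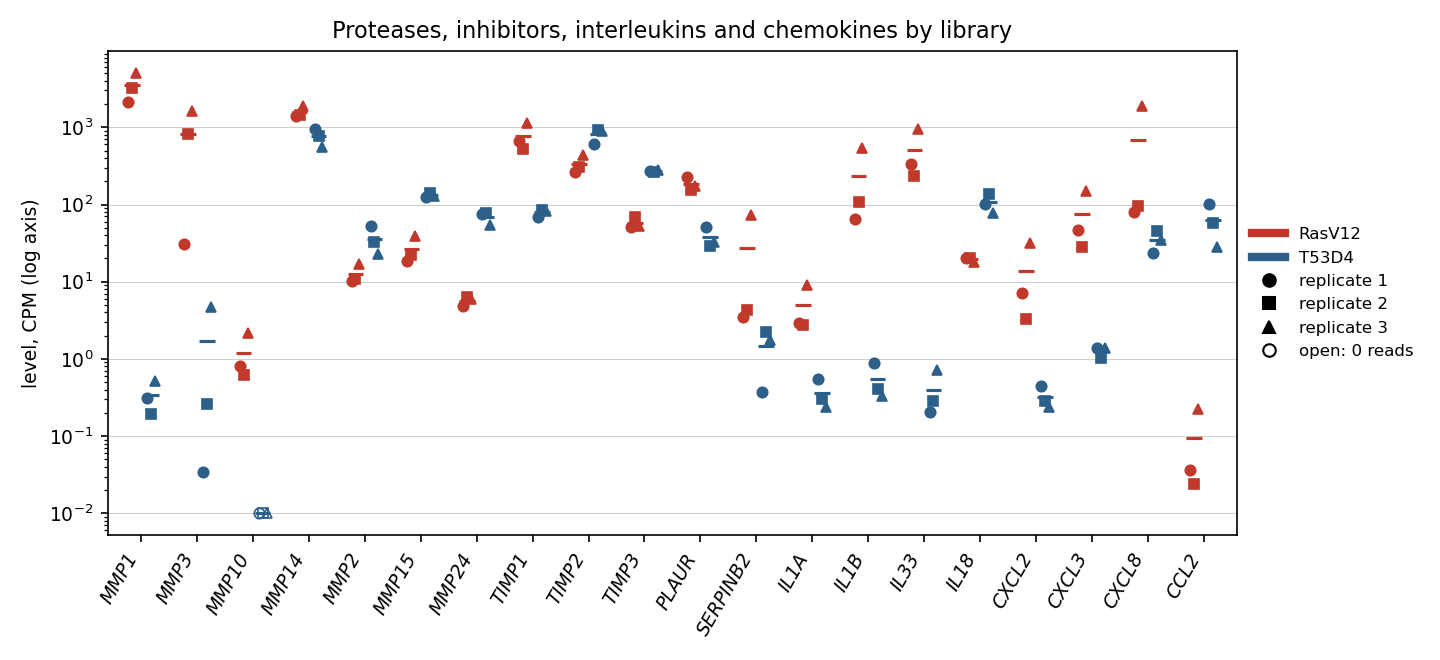
Level in CPM on a log axis of proteases, their inhibitors, interleukins and chemokines in each library of RasV12 (red) and T53D4 (blue), with symbols for the replicate and a bar for the mean of 3; open symbols at 0.01 mark libraries with 0 reads. RasV12 replicate 3 (red triangles) is the highest of its line for CXCL8, IL1B, SERPINB2 and MMP3, and CCL2 and IL18 lie lower in RasV12.

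The matrix these proteases act on was lower in part. Of 25 collagen chains 5 rose and 10 fell, with 10 not called (median -1.01), and 4 and 7 were called in every fit with 1 library left out. COL4A4, a basement membrane chain, had 12.9, 12.1 and 16.2 CPM in RasV12 and 99.6, 76.7 and 72.5 in T53D4, and COL4A2 167, 143 and 225 against 1679, 683 and 684 CPM. COL4A1 had 74.2, 53.6 and 84.7 against 1461, 382 and 342 CPM and COL5A1 2.81, 2.13 and 1.62 against 139, 18.96 and 21.2 CPM, and T53D4 replicate 1 stood above the other T53D4 libraries in all 4. The log2 fold changes were -2.60 ± 0.30 SE, -2.51 ± 0.47 SE, -3.36 ± 0.70 SE and -4.76 ± 1.05 SE (edgeR, Benjamini-Hochberg adjusted p = 2.91e-05, 0.00144, 0.00306 and 0.00439). Without T53D4 replicate 1 those of COL4A1 and COL5A1 were -2.34 and -3.17, still called. COL6A3 went up from near 0, with 41.3, 33.2 and 17.7 against 0.171, 0.0434 and 0 CPM (log2 8.65 ± 0.77 SE, edgeR, Benjamini-Hochberg adjusted p = 3.81e-06, and 9.87 without T53D4 replicate 1), and COL4A6 rose as well (7.59, 10.6 and 10.2 against 1.64, 2.32 and 3.57 CPM, log2 1.93 ± 0.38 SE, edgeR, Benjamini-Hochberg adjusted p = 0.00196).

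Basement membrane genes were called at a share of 28.6%, against 24.4% of all genes, in both directions. LAMA3, the alpha chain of the epithelial laminin 332, had 1.57, 1.32 and 1.94 CPM in RasV12 and 14.7, 25.7 and 25.1 in T53D4, while LAMB3, the beta chain of the same trimer, had 138, 146 and 256 against 21.9, 26.8 and 22.4 CPM. LAMA3 fell and LAMB3 rose, with log2 fold changes of -3.78 ± 0.40 SE and 2.92 ± 0.27 SE (edgeR, Benjamini-Hochberg adjusted p = 1.59e-05 and 6.43e-06). LAMA5 had 22.4, 16.7 and 30.1 against 135, 79.3 and 68.8 CPM (log2 -2.04 ± 0.49 SE, edgeR, Benjamini-Hochberg adjusted p = 0.00786). Of 14 basement membrane genes 2 rose and 2 fell, with 10 not called. With the replicate block 4 rose and 3 fell. Of 28 matricellular and crosslinking genes 3 rose and 7 fell, with 18 not called. The fit with the replicate block gave 5 rises and 11 falls. MATN2, a matrix adaptor, had 96.8, 79.4 and 74.2 against 535, 712 and 591 CPM (log2 -2.88 ± 0.24 SE, edgeR, Benjamini-Hochberg adjusted p = 2.25e-06), and SPP1, osteopontin, 24.7, 35.7 and 48.99 against 0.137, 2.19 and 2.48 CPM (log2 4.51 ± 0.88 SE, edgeR, Benjamini-Hochberg adjusted p = 0.00204).

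Receptors for matrix gave calls in both directions. Of 16 integrin chains 5 rose and 3 fell, with 8 not called. ITGA2, the collagen-binding alpha 2 chain, had 52.3, 74.6 and 136 CPM in RasV12 and 5.48, 7.9 and 5.57 in T53D4, and ITGA6, a laminin-binding chain, 436, 336 and 315 against 122, 138 and 126 CPM. ITGB4, the partner of ITGA6 in hemidesmosomes, had 16.4, 11.4 and 12.02 against 66.03, 83.05 and 76.6 CPM, and ITGA4 24.4, 16.3 and 18.1 against 78.9, 64.6 and 57.05 CPM. The first 2 rose by 3.79 ± 0.34 SE and 1.49 ± 0.16 SE and the others had log2 fold changes of -2.50 ± 0.57 SE and -1.77 ± 0.18 SE (edgeR, Benjamini-Hochberg adjusted p = 4.59e-06, 1.76e-05, 0.0052 and 1.23e-05).

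CD44, the hyaluronan receptor, had 1174, 1133 and 1431 CPM in RasV12 and 410.0, 320.1 and 403 in T53D4, and SDC1, syndecan 1, 176, 133 and 149.8 against 30.2, 25.1 and 32.9 CPM. Both rose, by 1.72 ± 0.19 SE and 2.38 ± 0.26 SE (edgeR, Benjamini-Hochberg adjusted p = 2.02e-05 and 1.81e-05). SDC2 had 43.5, 21.02 and 29.04 against 256, 132 and 103 CPM and the glypican GPC4 0.073, 0.851 and 1.26 against 47.6, 62.1 and 57.95 CPM, with T53D4 above RasV12 in every library. Their log2 fold changes were -2.39 ± 0.41 SE and -6.28 ± 0.50 SE (edgeR, Benjamini-Hochberg adjusted p = 0.000823 and 1.39e-06). Of 15 genes for syndecans, glypicans and hyaluronan 3 rose and 5 fell, with 7 not called.

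Genes of junctions between cells were mostly lower where called. Of 25 tested tight junction, desmosome and epithelial surface genes 1 rose and 13 fell, with 11 not called, with a median log2 fold change of -0.94 against 0.01 over all genes, and 1 and 11 of these were called in every fit with 1 library left out. JUP, plakoglobin, had 8.03, 7.61 and 9.46 CPM in RasV12 and 51.5, 41.1 and 37.2 in T53D4, PKP2, plakophilin 2, 16.9, 21.7 and 15.5 against 70.4, 81.2 and 64.05 CPM and DSC2, a desmosomal cadherin, 10.1, 7.99 and 12.2 against 34.98, 31.1 and 31.3 CPM. These 3 desmosome genes had log2 fold changes of -2.37 ± 0.34 SE, -1.99 ± 0.19 SE and -1.69 ± 0.22 SE (edgeR, Benjamini-Hochberg adjusted p = 0.000216, 7.44e-06 and 8.77e-05). CLDN11, a tight junction claudin, had 18.7, 11.02 and 6.03 against 51.3, 50.3 and 68.8 CPM (log2 -2.25 ± 0.36 SE, edgeR, Benjamini-Hochberg adjusted p = 0.000495). CLDN12 was the rise (98.5, 79.6 and 81.5 against 57.1, 54.7 and 51.9 CPM, log2 0.67 ± 0.14 SE, edgeR, Benjamini-Hochberg adjusted p = 0.00316).

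Of 15 cadherins 1 rose and 4 fell, with 10 not called, a share of 33.3% against 24.4% of all genes. Fitted with the replicate block, 2 rose and 6 fell. CDH11, a cadherin of mesenchyme, had 31.03, 18.8 and 21.9 CPM in RasV12 and 199, 154 and 163 in T53D4 (log2 -2.85 ± 0.24 SE, edgeR, Benjamini-Hochberg adjusted p = 2.69e-06), and CDH13, which is tethered by a lipid, 9.56, 7.71 and 8.65 against 5.13, 3.99 and 2.67 CPM (log2 1.13 ± 0.28 SE, edgeR, Benjamini-Hochberg adjusted p = 0.00878). CDH1, E-cadherin, was near 0 in both lines, with 1 read in RasV12 and 33 in T53D4. ZEB1, a repressor of epithelial genes, rose (96.1, 75.3 and 62.3 against 34.98, 34.9 and 26.7 CPM, log2 1.27 ± 0.21 SE, edgeR, Benjamini-Hochberg adjusted p = 0.000492). Vimentin, the mesenchymal filament gene VIM, was abundant in both lines and not called (13991, 9071 and 7909.7 against 8079, 7318 and 7994 CPM). Of the other mesenchymal markers, CDH2, N-cadherin, was called lower in RasV12 (199, 157 and 210 against 497, 271 and 275 CPM, edgeR, Benjamini-Hochberg adjusted p = 0.0464). COL1A1 and ACTA2 were not called.

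KRT8 and KRT18, a keratin pair of simple epithelium, fell. KRT8 had 586, 664 and 579 CPM in RasV12 and 997, 1169.5 and 1348 in T53D4 and KRT18 205, 247 and 167 against 451, 458 and 403 CPM. Their log2 fold changes were -0.94 ± 0.17 SE and -1.08 ± 0.25 SE (edgeR, Benjamini-Hochberg adjusted p = 0.00116 and 0.00592), and of 13 keratins 1 rose and 5 fell, with 7 not called. KRT7, another abundant keratin of simple epithelium, overlapped between the lines (877, 945 and 1544 against 1609, 1436 and 943 CPM) and was not called. KRT8 and KRT18 are neighbours whose annotations overlap. Of 33 genes of the cornified envelope, the outer layer of skin, 9 passed the filter on low counts. LCE1F passed only through its RasV12 reads and PI3 had 0 reads in T53D4, so no count of calls is given for the list. TGM2, a crosslinking enzyme of many tissues, had 409.9, 919 and 477 against 95.6, 52.9 and 79.9 CPM, and TGM1, its keratinocyte relative, 3.21, 7.64 and 6.8 against 41.6, 26.7 and 18.8 CPM. The first rose by 2.98 ± 0.36 SE and the second had a log2 fold change of -2.30 ± 0.53 SE (edgeR, Benjamini-Hochberg adjusted p = 4.24e-05 and 0.00556). LCE1F, a late envelope protein gene, had 9.49, 4.99 and 13.5 against 0, 0 and 0 CPM and was at least 269-fold higher against the floor of 3 reads, with the reservation that the LCE1 genes are close copies of each other. PI3, the elastase inhibitor elafin, had 0.256, 3.17 and 99.5 against 0, 0 and 0 CPM, with most of its RasV12 reads in replicate 3.

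The actin and contractile list gave falls alone. Of 21 genes 0 rose and 15 fell, with 6 not called (median -0.87), and 11 of the 15 falls were called in every fit with 1 library left out. MYLK, the kinase that switches on myosin, had 177, 171 and 307 CPM in RasV12 and 800.0, 718 and 703 in T53D4, and MYL9, the myosin light chain it acts on, 40.5, 62.3 and 99.2 against 518, 434 and 238 CPM. Both fell, with log2 fold changes of -1.76 ± 0.25 SE and -2.56 ± 0.47 SE (edgeR, Benjamini-Hochberg adjusted p = 0.000192 and 0.00125). MYH9, a non-muscle myosin heavy chain, had 1901, 1842 and 2569.6 against 7423, 5143 and 4994 CPM and was the gene of highest level per length among those at least 2-fold lower (649 FPKM in T53D4 and 234 in RasV12). Its log2 fold change was -1.48 ± 0.22 SE (edgeR, Benjamini-Hochberg adjusted p = 0.000248). TAGLN, an actin-bundling gene of smooth muscle, had 15.5, 9.55 and 17.3 against 566, 149 and 48.5 CPM, and its log2 fold change of -4.18 ± 0.91 SE (edgeR, Benjamini-Hochberg adjusted p = 0.00404) was -2.80 without T53D4 replicate 1 and -3.53 with the replicate block.

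Targets of YAP and TEAD, which answer to cell tension and spreading, gave falls mainly: 10 of 25 fell and 2 rose (median -0.74). ANKRD1 had 36.9, 96.2 and 144 CPM in RasV12 and 354, 429.6 and 248 in T53D4, and TGFB2, a TGF-beta ligand, 109, 90.05 and 109 against 1369.8, 818 and 625 CPM. The log2 fold changes were -1.90 ± 0.42 SE and -3.19 ± 0.43 SE (edgeR, Benjamini-Hochberg adjusted p = 0.00488 and 0.000123). NT5E (ENSG00000135318, chr6:85449584-85495791), the surface enzyme CD73 that makes adenosine, was the larger of the rises, with 3045, 2407 and 2869 against 290.4, 259.9 and 448 CPM (log2 3.06 ± 0.47 SE, edgeR, Benjamini-Hochberg adjusted p = 0.000354). Of 25 small GTPase and actin regulator genes 2 rose and 7 fell, with 16 not called. LIMK1, which stabilises actin filaments, rose (133, 195 and 163 against 95.7, 95.1 and 87.4 CPM, log2 0.82 ± 0.16 SE, edgeR, Benjamini-Hochberg adjusted p = 0.00193), and RAC3 fell (15.2, 14.02 and 10.9 against 23.5, 24.9 and 20.6 CPM, log2 -0.78 ± 0.19 SE, edgeR, Benjamini-Hochberg adjusted p = 0.00723).

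**Figure D4:**
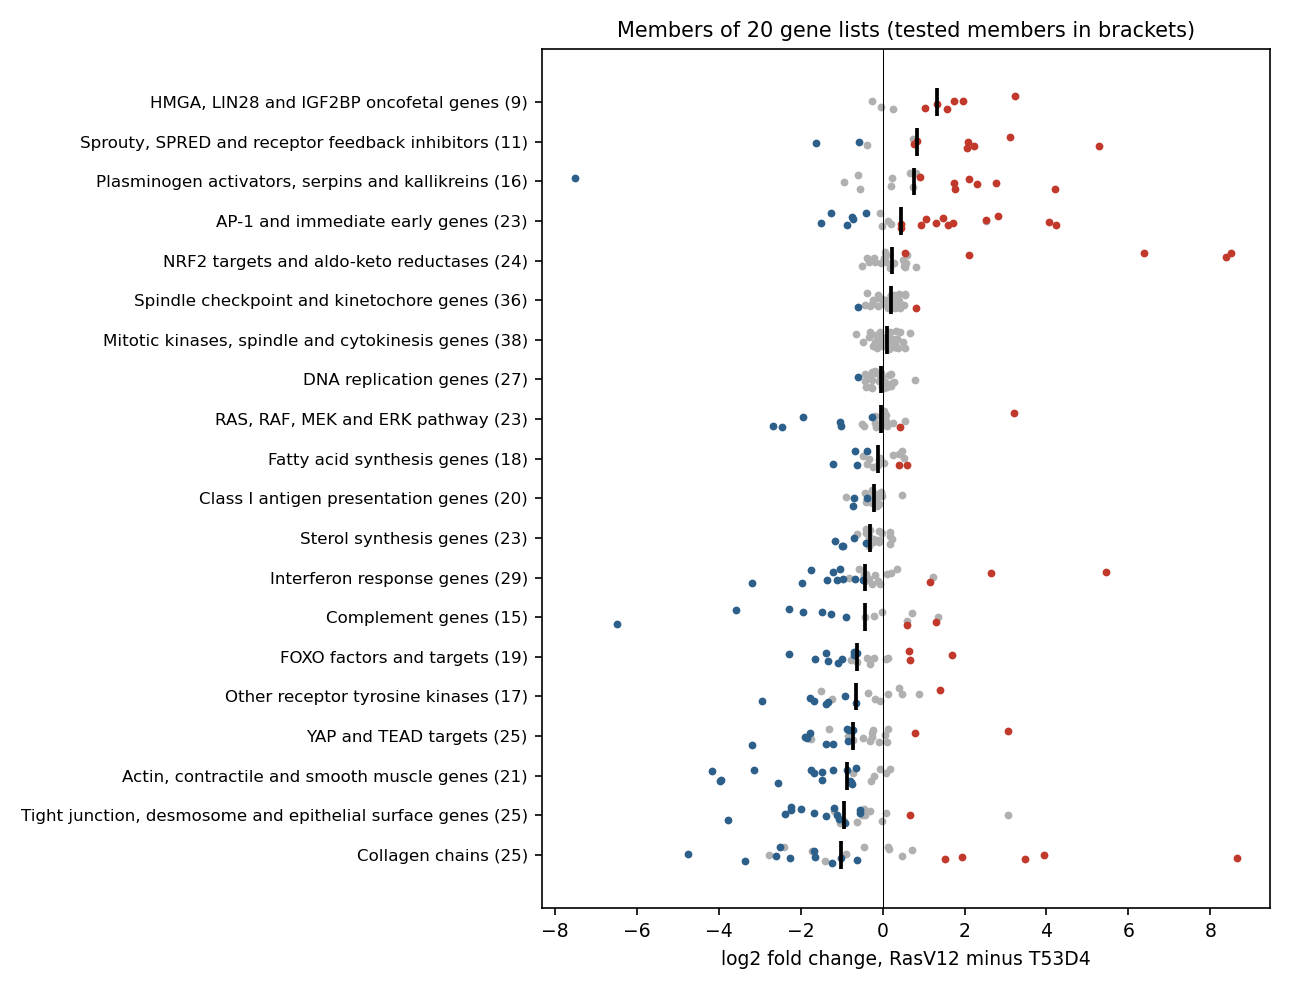
Log2 fold change of RasV12 against T53D4 (horizontal axis) for the tested members of 20 gene lists, 1 point per gene, red where called higher, blue where called lower and grey where not called, with a black bar at the list's median. Lists are ordered by median: the contractile list has 15 blue points and no red ones, and the cell division lists sit close to 0 with few coloured points.

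Factors and effectors of the pigment epithelium gave calls at shares of 30.8% and 23.8%, against 24.4% of all genes. MITF, the master regulator of pigment cells, had 25.1, 31.2 and 26.3 CPM in RasV12 and 66.1, 107 and 105 in T53D4, and PAX6, an eye field factor, 81.8, 75.5 and 61.3 against 99.9, 135 and 119 CPM. They fell, with log2 fold changes of -1.75 ± 0.26 SE and -0.70 ± 0.14 SE (edgeR, Benjamini-Hochberg adjusted p = 0.000246 and 0.00282). OTX2, which works with MITF, did not differ beyond the spread (67.2, 72.9 and 67.7 against 44.2, 79.2 and 69.9 CPM). RAX, the retinal homeobox gene, had 0.0365, 0.0236 and 0.045 against 8.22, 4.64 and 4.43 CPM, with 3 reads in RasV12 and a ratio of T53D4 to RasV12 of 174 (95% interval 59.2 to 846). TBX3 was the single rise among 13 eye field factors (14.3, 9.81 and 11.3 against 2.91, 2.78 and 1.43 CPM, log2 2.30 ± 0.32 SE, edgeR, Benjamini-Hochberg adjusted p = 0.000155), and 3 fell. PMEL, a pigment granule protein, fell (2.59, 2.2 and 2.52 against 8.73, 6.62 and 5.95 CPM, log2 -1.55 ± 0.26 SE, edgeR, Benjamini-Hochberg adjusted p = 0.000728), within a list of 21 pigment and visual cycle genes in which 3 rose and 2 fell, with 16 not called. In the blocked fit the counts were 4 and 4.

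Cell division was read from entry genes to mitosis. CCND1 had 3129.5, 3336 and 2956 CPM in RasV12 and 749, 481 and 598 in T53D4 and CDK4 1648, 1722 and 1718 against 87.7, 88.8 and 106 CPM, both on genes that share reads with their constructs, with log2 fold changes of 2.37 ± 0.23 SE and 4.17 ± 0.16 SE (edgeR, Benjamini-Hochberg adjusted p = 7.96e-06 and 3.48e-09). CDK6, the sister kinase of CDK4, which has no construct, had 28.8, 22.7 and 20.8 against 127, 91.4 and 77.5 CPM (log2 -2.03 ± 0.31 SE, edgeR, Benjamini-Hochberg adjusted p = 0.000291). E2F7, a repressor made late in S phase, had 222, 289 and 226 against 59.97, 60.4 and 66.05 CPM (log2 1.98 ± 0.29 SE, edgeR, Benjamini-Hochberg adjusted p = 0.000232). CDKN2A, which encodes the inhibitor p16 and ARF, had 11.4, 7.42 and 7.07 against 25.2, 16.7 and 16.8 CPM (log2 -1.18 ± 0.26 SE, edgeR, Benjamini-Hochberg adjusted p = 0.00475).

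Among 27 DNA replication genes 0 rose and 1 fell, with 26 not called (median -0.04), the fall being TK1 (133, 90.8 and 102 against 181, 142 and 173 CPM), a call lost without RasV12 replicate 2 or 3 or T53D4 replicate 1 or 3 (edgeR, Benjamini-Hochberg adjusted p = 0.166, 0.122, 0.143 and 0.109). Among 36 spindle checkpoint and kinetochore genes 1 rose and 1 fell, with 34 not called (median 0.21). With the replicate block 3 rose and 2 fell. The rise was BUB3, a checkpoint protein, with 500.3, 379.9 and 378 CPM in RasV12 and 259.6, 217 and 242 in T53D4 (log2 0.81 ± 0.18 SE, edgeR, Benjamini-Hochberg adjusted p = 0.00531), and the fall PMF1, a kinetochore subunit (16.9, 17.1 and 11.3 against 23.5, 23.99 and 21.2 CPM, log2 -0.59 ± 0.14 SE, edgeR, Benjamini-Hochberg adjusted p = 0.00775). Among 38 mitotic kinase, spindle and cytokinesis genes none was called by edgeR in either direction and 1 was lower with the replicate block (median 0.10). For these 3 lists the share called lies far below the 24.4% of all genes.

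Of 25 p53 targets 6 rose and 2 fell, with 17 not called (median 0.08), a share of 32% against 24.4% of all genes. The fit with the replicate block gave 8 rises and 4 falls. CDKN1A, the p21 inhibitor of cyclin-dependent kinases, had 371, 555 and 547 against 216, 194 and 164 CPM, and PMAIP1, the death gene NOXA, 48.7, 40 and 27.2 against 17.7, 15.01 and 14.3 CPM. They rose by 1.36 ± 0.28 SE and 1.30 ± 0.30 SE (edgeR, Benjamini-Hochberg adjusted p = 0.00309 and 0.00642). PLK2 was lower (432, 343 and 319.7 against 983, 928 and 835 CPM, log2 -1.33 ± 0.13 SE, edgeR, Benjamini-Hochberg adjusted p = 1.02e-05). MYC was lower as well, with 139, 150.0 and 108 against 232, 214 and 189 CPM (log2 -0.68 ± 0.17 SE, edgeR, Benjamini-Hochberg adjusted p = 0.00887), in a list of 30 MYC and ribosome biogenesis genes in which 3 rose and 2 fell, with 25 not called. ODC1, a polyamine enzyme, was one of the rises (397, 414 and 471 against 213, 192 and 214 CPM, log2 1.05 ± 0.14 SE, edgeR, Benjamini-Hochberg adjusted p = 0.000126).

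The BCL2 family, which holds both survival and death genes, gave 5 rises and 3 falls among 18. Fitted with the replicate block, 5 rose and 5 fell. MCL1 had 885, 556 and 542 CPM in RasV12 and 251, 202 and 189 in T53D4 and BCL2L1, which encodes BCL-XL, 471, 639 and 416 against 278, 296 and 296 CPM. They rose by 1.63 ± 0.21 SE and 0.81 ± 0.15 SE (edgeR, Benjamini-Hochberg adjusted p = 8.29e-05 and 0.00122). BCL2A1 had 9.82, 3.22 and 16.3 against 0.0342, 0.0217 and 0 CPM, with 2 reads in T53D4 and a ratio of 402 (95% interval 111 to 3324). BCL2A1 passed the filter on low counts only through its RasV12 libraries, so its direction is not evidence about the family. HRK and BOK, which promote death, fell (0.511, 1.39 and 1.04 against 14.5, 29.3 and 23.3 CPM, and 66.5, 51.6 and 57.8 against 223, 138 and 139.6 CPM), with log2 fold changes of -4.48 ± 0.58 SE and -1.51 ± 0.22 SE (edgeR, Benjamini-Hochberg adjusted p = 8.79e-05 and 0.000196).

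Of 9 tested genes of the HMGA class of chromatin proteins and other genes of early development, 6 rose and 0 fell, with 3 not called (median 1.32), and all 6 rises were called in every fit with 1 library left out. HMGA2 had 113, 141 and 133 CPM in RasV12 and 9.93, 13.99 and 17.1 in T53D4 and HMGA1 4202, 3974 and 2373 against 891, 981 and 1302 CPM. The log2 fold changes were 3.24 ± 0.30 SE and 1.73 ± 0.38 SE (edgeR, Benjamini-Hochberg adjusted p = 5.76e-06 and 0.00409). IGF2BP3, an RNA-binding protein, and PLAG1, a zinc finger factor, had 53.04, 47.6 and 34.6 against 12.8, 14.6 and 18.3 CPM and 8.32, 7.73 and 7.29 against 1.61, 2.15 and 2.24 CPM, with rises of 1.57 ± 0.21 SE and 1.96 ± 0.22 SE (edgeR, Benjamini-Hochberg adjusted p = 0.000123 and 2.64e-05).

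Metabolic lists were read next. The share called was 12% for glycolysis, 21.7% for sterol, 33.3% for fatty acid and 20.8% for NRF2 genes, against 24.4% of all genes. Of 25 glycolysis genes 1 rose and 2 fell, with 22 not called (median -0.21). In the blocked fit the counts were 2 and 5. PFKP, a phosphofructokinase, was a fall (442, 353 and 267 CPM in RasV12 and 774, 561 and 637 in T53D4, log2 -0.89 ± 0.20 SE, edgeR, Benjamini-Hochberg adjusted p = 0.00442), and lies on the short arm of chromosome 10 described below. Of 23 sterol synthesis genes 0 rose and 5 fell, with 18 not called. LSS, which closes the sterol rings, had 71.8, 61.9 and 75.5 against 179, 133 and 159 CPM (log2 -1.17 ± 0.18 SE, edgeR, Benjamini-Hochberg adjusted p = 0.000291). Of 18 fatty acid synthesis genes 2 rose and 4 fell, with 12 not called. With the replicate block 4 rose and 7 fell. ACACA, the acetyl-CoA carboxylase that starts the synthesis, fell (91.8, 92.2 and 81.1 against 132, 143 and 137 CPM, log2 -0.64 ± 0.13 SE, edgeR, Benjamini-Hochberg adjusted p = 0.00275). Of 24 NRF2 target and aldo-keto reductase genes 5 rose and 0 fell, with 19 not called. AKR1C1, among these rises, passed the filter on low counts only through its RasV12 libraries, so its direction is not evidence about the list. The fit with the replicate block gave 7 rises and 1 fall. HMOX1, haem oxygenase, had 89.7, 163 and 152 against 28.04, 39.2 and 25.9 CPM (log2 2.12 ± 0.33 SE, edgeR, Benjamini-Hochberg adjusted p = 0.000389), and AKR1C1 had 2 reads in T53D4 and 8.72 ± 2.37 CPM (SD, n = 3) in RasV12, a ratio of 409 (95% interval 113 to 3385), on a gene with close copies that can share its reads. SLC7A5, a leucine transporter, fell (289, 383 and 316 against 1147, 783 and 855 CPM, log2 -1.50 ± 0.28 SE, edgeR, Benjamini-Hochberg adjusted p = 0.00148).

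The insulin receptor gene INSR and its relative IGF1R fell. INSR had 16.2, 14.7 and 19.8 CPM in RasV12 and 40.1, 40.6 and 46.8 in T53D4, and IGF1R 40.4, 38.5 and 59.3 against 96.8, 74.1 and 92 CPM, with log2 fold changes of -1.33 ± 0.18 SE and -0.93 ± 0.21 SE (edgeR, Benjamini-Hochberg adjusted p = 0.000123 and 0.00553). PAPPA, a protease that frees IGF from its binding proteins, rose from near 0 (11.2, 11.7 and 18.3 against 0.205, 0.304 and 0.19 CPM, log2 5.80 ± 0.40 SE, edgeR, Benjamini-Hochberg adjusted p = 5.78e-07). Of 16 insulin and IGF genes 3 rose and 4 fell, with 9 not called. Of 19 FOXO factors and targets, which insulin signalling holds down, 3 rose and 9 fell, with 7 not called (median -0.62). PIK3IP1, which inhibits PI3 kinase, had 2.99, 2.96 and 6.08 against 30.3, 17.1 and 10.7 CPM, and SESN3, a sestrin, 12.5, 8.06 and 9.86 against 3.05, 3.12 and 3.19 CPM. The first fell and the second rose, with log2 fold changes of -2.29 ± 0.58 SE and 1.70 ± 0.39 SE (edgeR, Benjamini-Hochberg adjusted p = 0.0103 and 0.00534).

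Interferon response genes were lower in 10 of 29 cases and higher in 3 (median -0.44). OAS3 and IFIH1, sensors of double-stranded RNA, had 28.1, 21.7 and 34.5 CPM in RasV12 and 61.9, 53.5 and 57 in T53D4, and 9.31, 10.7 and 10.04 against 21.1, 26.1 and 17.7 CPM. Their log2 fold changes were -1.03 ± 0.17 SE and -1.11 ± 0.17 SE (edgeR, Benjamini-Hochberg adjusted p = 0.000474 and 0.000345). IFI44L was one of the rises (20.4, 30.3 and 33.9 against 0.513, 0.803 and 0.571 CPM, log2 5.44 ± 0.38 SE, edgeR, Benjamini-Hochberg adjusted p = 5.93e-07). Of 20 class I antigen presentation genes 0 rose and 3 fell, with 17 not called (median -0.22), a share of 15% against 24.4% of all genes. Of 15 complement genes 2 rose and 7 fell, with 6 not called. CD59, which shields cells from complement, rose (619, 478 and 814 against 283, 214 and 281 CPM, log2 1.30 ± 0.21 SE, edgeR, Benjamini-Hochberg adjusted p = 0.000445), and SERPING1, the C1 inhibitor, fell (0.621, 0.307 and 0.315 against 73.5, 20.2 and 16.3 CPM, log2 -6.48 ± 1.08 SE, edgeR, Benjamini-Hochberg adjusted p = 0.000622, and -5.46 without T53D4 replicate 1). C3 had 10, 33.2 and 339.5 against 168, 123 and 92 CPM, and the RasV12 libraries spread to both sides of T53D4.

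Among secreted signals of development, BMP2 had 137, 105 and 151 CPM in RasV12 and 8.59, 10.6 and 11.4 in T53D4 and BMP4 18.6, 14.7 and 15.2 against 38.1, 93.3 and 104 CPM, 2 ligands of the same receptors, and ID1, a target of BMP signalling, 174, 227 and 249.9 against 20.5, 31.9 and 41.1 CPM. BMP2 and ID1 rose and BMP4 fell, with log2 fold changes of 3.68 ± 0.18 SE, 2.80 ± 0.37 SE and -2.28 ± 0.38 SE (edgeR, Benjamini-Hochberg adjusted p = 3.06e-08, 9.33e-05 and 0.00059). Of 21 BMP genes 3 rose and 4 fell, with 14 not called, a share of 33.3% against 24.4% of all genes. Fitted with the replicate block, 3 rose and 7 fell. Of 23 TGF-beta genes 5 rose and 3 fell, with 15 not called, a share of 34.8%. In the blocked fit the counts were 8 and 5. The receptor TGFBR2 had 87.9, 92.03 and 119.8 against 47.8, 47.3 and 44.1 CPM (log2 1.11 ± 0.16 SE, edgeR, Benjamini-Hochberg adjusted p = 0.000225), and INHBA, an activin subunit, 76.9, 178 and 483 against 26.7, 18.2 and 24.7 CPM (log2 3.41 ± 0.50 SE, edgeR, Benjamini-Hochberg adjusted p = 0.00022, and 2.46 without RasV12 replicate 3).

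In the WNT list of 27 genes 5 rose and 8 fell, with 14 not called. With the replicate block 9 rose and 9 fell. SFRP1, a secreted WNT antagonist, had 693, 393 and 665 CPM in RasV12 and 111, 88.9 and 97.8 in T53D4 and FZD8, a WNT receptor, 59.02, 44.6 and 59.6 against 9.76, 5.9 and 5.48 CPM, while the ligand WNT2B had 1.17, 1.11 and 2.57 against 28.4, 49.6 and 37.4 CPM. The log2 fold changes were 2.55 ± 0.34 SE, 2.95 ± 0.20 SE and -4.62 ± 0.82 SE (edgeR, Benjamini-Hochberg adjusted p = 0.000107, 5.78e-07 and 0.000964). In the NOTCH list of 15 genes 2 rose and 3 fell, with 10 not called, a share of 33.3% against 24.4% of all genes. The fit with the replicate block gave 2 rises and 5 falls. JAG1, a NOTCH ligand, had 29.5, 42.6 and 59.7 against 17.8, 18.3 and 14.5 CPM, and the receptor NOTCH2 232, 232 and 304 against 414, 396 and 444 CPM. The ligand rose by 1.38 ± 0.20 SE, and NOTCH2 had a log2 fold change of -0.71 ± 0.15 SE (edgeR, Benjamini-Hochberg adjusted p = 0.000244 and 0.00395). Guidance genes moved in both directions, with 8 rises and 6 falls among 28. SEMA3F and SEMA3A had 108, 103 and 102 against 15.3, 9.63 and 16.6 CPM and 40.7, 23.8 and 23.2 against 2.77, 2.65 and 2.81 CPM. The SEMA3A co-receptor NRP1 had 263, 313 and 407 against 24.03, 41.1 and 50.4 CPM, and SEMA3E 0.657, 0.355 and 0.36 against 12.7, 6.96 and 4.67 CPM. SEMA3F, SEMA3A and NRP1 rose by 2.91 ± 0.21 SE, 3.41 ± 0.30 SE and 3.09 ± 0.37 SE, and SEMA3E had -4.15 ± 0.44 SE (edgeR, Benjamini-Hochberg adjusted p = 6.14e-07, 3.64e-06, 3.92e-05 and 1.48e-05).

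Of 26 ion channel and synaptic genes that passed the filter on low counts 8 rose and 4 fell, with 14 not called. SNAP25 had 0 reads in T53D4, and its RasV12 libraries alone meet the filter, so its direction is not evidence about the list. Fitted with the replicate block, 13 rose and 4 fell. SNAP25, a membrane fusion protein of synapses, had 6.39, 7.68 and 11.1 CPM in RasV12 and 0, 0 and 0 in T53D4, at least 261-fold apart against the floor, and STX1A, its partner, 39.3, 40.7 and 32.6 against 3.18, 3.93 and 2.86 CPM (log2 3.49 ± 0.25 SE, edgeR, Benjamini-Hochberg adjusted p = 5.93e-07). SCN9A, a sodium channel, fell (1.61, 2.13 and 0.45 against 55.7, 42.3 and 28.3 CPM, log2 -4.85 ± 0.51 SE, edgeR, Benjamini-Hochberg adjusted p = 1.42e-05). Of the 2 neuron markers, SYP, a synaptic vesicle protein and a member of this list, was called higher in RasV12 (1.31, 1.49 and 3.87 against 0.513, 0.456 and 0.476 CPM), and RBFOX3, a protein of neuronal nuclei, had 2 reads in RasV12 and 8 in T53D4. Their part in the other values was not tested.

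The largest rises included GFPT2, which feeds glucose into hexosamines, with 59.2, 47.7 and 47.5 CPM in RasV12 and 0.171, 0.0434 and 0.0476 in T53D4 (log2 9.19 ± 0.51 SE, edgeR, Benjamini-Hochberg adjusted p = 1.13e-07, and 10.06 without T53D4 replicate 1), and G0S2, an inhibitor of fat breakdown, with 13.5, 10.1 and 15.2 against 0.0685, 0 and 0 CPM. STC1, stanniocalcin, had 51.7, 15.1 and 16.7 against 0.0342, 0 and 0.0952 CPM, highest in replicate 1. TMEM158, a transmembrane protein with an older name that refers to RAS, had 1034, 624 and 520.1 against 42.9, 36.2 and 37.2 CPM (log2 4.23 ± 0.30 SE, edgeR, Benjamini-Hochberg adjusted p = 5.93e-07). It was among the 10 rises of highest level per length (398 FPKM in RasV12 and 21.3 in T53D4).

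The largest falls included GALNT17, a glycosylation enzyme, with 0.0365, 0.0236 and 0 CPM in RasV12 and 43.5, 21.8 and 16.05 in T53D4, ITM2A, a membrane protein, with 0, 0 and 0 against 11.3, 7.18 and 8.9 CPM and at least 269.8-fold lower against the floor, and NPPB, the natriuretic peptide B, with 0.657, 0.236 and 0.0901 against 436, 119 and 123 CPM. NPPB had the second highest level per length among the genes at least 2-fold lower (319 FPKM in T53D4 and 0.463 in RasV12). HEPH, a copper-dependent iron oxidase, had 0.621, 0.189 and 0.36 against 40.2, 35.2 and 25.4 CPM and ASIC2, an acid-sensing channel, 0.548, 0.331 and 0.0901 against 43.3, 43.2 and 42.6 CPM. The last 2 had log2 fold changes of -6.49 ± 0.48 SE and -6.99 ± 0.49 SE (edgeR, Benjamini-Hochberg adjusted p = 7.01e-07 and 5.93e-07), and in all of these genes the lines did not overlap.

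Position on the chromosomes went with some of the smaller changes. The counts by chromosome cover only the 11132 tested genes whose average level reached 5 CPM in some line. Of these, 1222 rose and 1476 fell, with a median log2 fold change of 0.02. On the short arm of chromosome 10, 4 of 105 such genes rose and 44 fell, with a median of -0.33. On the long arm 104 of 344 rose and 37 fell, with a median of 0.31. Each RasV12 library showed the pattern against the T53D4 mean, with medians of -0.25, -0.32 and -0.58 on the short arm and 0.22, 0.29 and 0.36 on the long arm. Against MekDD the medians were -0.35 and 0.25 and against AKTmyr -0.37 and 0.29, with the same RasV12 libraries. On chromosome 20, 80 of 299 rose and 25 fell (median 0.25), and on chromosome 22, 13 of 252 rose and 59 fell (median -0.16). Of the called genes named above, ZEB1, NRP1, FZD8, AKR1C1, PFKP and KLF6 lie on the short arm of chromosome 10 and DUSP5, ADAM8, BUB3 and ANKRD1 on its long arm. ZEB1, NRP1, FZD8 and AKR1C1 are the 4 rises counted on the short arm, and PFKP and KLF6 are among its 44 falls. On chromosome 20 lie BMP2, ID1, JAG1, BCL2L1, TGM2, SNAP25 and PI3, which rose, and LAMA5, MMP24 and MYL9, which fell. On chromosome 22 lie HMOX1 and MAFF, which rose, and TIMP3, MYH9, PDGFB and PIK3IP1, which fell. The part of the number of gene copies in these values was not tested.

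RasV12 was then set against MekDD and AKTmyr. The lines differed in the shared plasmids too: the means of the cyclin D1 construct were 2349.7 CPM for RasV12, 269.5 for MekDD and 857.7 for AKTmyr, and those of CDK4R24C 2380.5, 142 and 1005.5 CPM, against 193 and 70.7 in ARPE19. As with T53D4, these differences and that between the signalling constructs cannot be told apart. These comparisons use the RasV12 libraries again and are given as values side by side. Against MekDD 975 genes were higher in RasV12 (7.17%) and 1133 lower (8.33%), and 1700 and 1888 with the replicate block. The first 2 counts fell to 620 higher without MekDD replicate 3 and to 698 lower without RasV12 replicate 2. Against AKTmyr 2669 genes were higher (19.6%) and 2821 lower (20.7%). DUSP6 had 351 ± 50.5 CPM in RasV12, 84.6 ± 12.5 in MekDD and 3.83 ± 0.611 in AKTmyr (SD, n = 3), with 6.996 ± 1.01 CPM in T53D4. RasV12 exceeded MekDD by 2.05 ± 0.18 SE and AKTmyr by 6.53 ± 0.23 SE on the log2 scale (edgeR, Benjamini-Hochberg adjusted p = 8.78e-06 and 1.52e-09). SPRY4, HMGA2 and TMEM158 were higher than in MekDD too, by 1.84 ± 0.33 SE, 1.44 ± 0.28 SE and 1.54 ± 0.27 SE (edgeR, Benjamini-Hochberg adjusted p = 0.00177, 0.00329 and 0.00146). Of the 11 feedback inhibitors 6 were higher and 2 lower than in MekDD, and 7 and 2 than in AKTmyr.

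Other genes differed from T53D4 and were not called against MekDD. GPC4 had 0.728 ± 0.603 CPM in RasV12 and 0.85 ± 0.469 in MekDD, against 55.9 ± 7.47 in T53D4 and 104 ± 18.9 in AKTmyr. Its log2 difference from MekDD was -0.21 ± 0.55 SE (edgeR, Benjamini-Hochberg adjusted p = 0.851), and that of NT5E was 0.51 ± 0.44 SE (edgeR, Benjamini-Hochberg adjusted p = 0.5), which does not show that the lines are alike. MATN2 was lower than in MekDD (log2 -2.49 ± 0.23 SE) and than in AKTmyr (log2 -2.43 ± 0.23 SE), with edgeR, Benjamini-Hochberg adjusted p of 1.3e-05 and 5.29e-06. CDKN1A was higher than in MekDD (log2 1.57 ± 0.29 SE, edgeR, Benjamini-Hochberg adjusted p = 0.00203) and lower than in AKTmyr (log2 -1.05 ± 0.28 SE, edgeR, Benjamini-Hochberg adjusted p = 0.00914), the latter without a call when AKTmyr replicate 1 was left out (adjusted p 0.0519). MMP2 was higher than in MekDD (log2 2.05 ± 0.39 SE) but lower than in AKTmyr (-4.69 ± 0.41 SE) and T53D4 (edgeR, Benjamini-Hochberg adjusted p = 0.00298 and 2.56e-06). Contractile genes were lower than in MekDD in 10 of 21 cases and than in AKTmyr in 14, with no member higher in either.

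**Figure D5:**
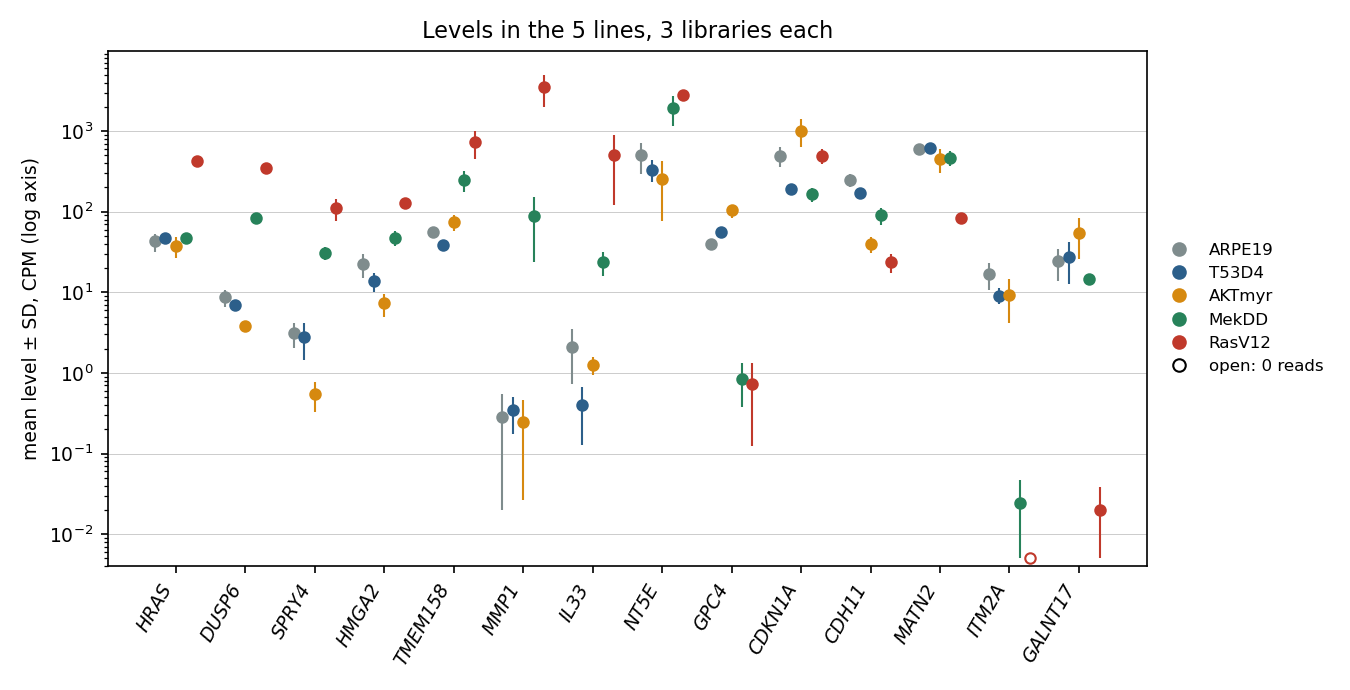
Mean level in CPM on a log axis, with the SD of 3 libraries as a vertical line, of 14 genes in the 5 lines; an open symbol marks a mean of 0 reads, and lines reaching under 0.005 are clipped there. DUSP6, SPRY4 and MMP1 rank RasV12 first and MekDD second, GPC4 and ITM2A are low in both of these lines, and MATN2 and GALNT17 have their lowest mean in RasV12.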

How the data were processed

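Poly(A) RNA of 5 lines, with 3 libraries each, was sequenced, and the authors deposited raw counts of reads per gene with 15517 rows, of which 7 are construct sequences. Per the submitters' processing notes, the tools were fastp 0.20.0, HISAT2 2.1.0, SAMtools 1.9, featureCounts 1.6.4, deepTools 3.2.0 and DESeq2 1.28.1 with build hg38. Whether the counting used strand is not given in the sources used here. Of 174 genes printed with a fold change, 29 overlap an annotated neighbour on the opposite strand and 8 one on their own strand, so their reads may be shared: KRT8 with KRT18, COL4A1 with COL4A2, and TIMP3, TIMP1, MATN2, RASA1, PAX6 and TAGLN with other genes are examples.

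The counts were fitted with edgeR 4.0.16 in R 4.3.3 (trimmed-mean scaling, glmQLFit and glmQLFTest, line as the only factor, all 15 libraries sharing the estimate of the spread). Construct rows were left out, and 13599 genes passed filterByExpr with a minimum of 10 reads. Adjusted p is by Benjamini-Hochberg over these genes, called under 0.05. The SE is the log2 fold change divided by the square root of F. FPKM used merged exon lengths of the annotation. Tested on simulated counts for RasV12 against T53D4 with 13461 genes, the fit recovered 62 of 100 genes changed 2-fold and 93 of 100 changed 4-fold, with 9 false calls. Depth was 20.63 to 46.55 M reads on genes, and for genes at 0 the floor was 3 reads over a line, counting error only. Intervals of 95% on ratios are exact binomial ones and cover counting error only.

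Same-numbered RasV12 and T53D4 libraries deviated together from their line means (r = 0.345, 0.308 and 0.141 across genes, and -0.289 to 0.086 for other pairs). The numbers were taken to pair the libraries on this evidence from the data, but the main fit leaves the pairing out. Every SE and adjusted p is from the main fit unless another setting is named, and a replicate block was an alternative. The block called 35.8% of the genes against 24.4%, so a gene given as not called may be called with the block. The other alternatives were the lines compared alone, RLE size factors, DESeq2 1.42.0, no filter, at least 50 reads in 3 libraries, construct rows kept, and each library left out.

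The comparison, the 60 gene lists and the tests were chosen with earlier results of these data known. Named genes were those of the constructs, up to 4 called members of each list with the largest rise and 4 with the largest fall at 5 CPM or more in the higher line, any member of the signalling, metalloproteinase and interleukin-1 lists, the 15 largest rises and falls without overlap, the 10 of highest FPKM at least 2-fold higher in each line, the 10 most variable over the RasV12 libraries, and the 5 extremes against MekDD and AKTmyr. Lone values of other genes (OTX2, VIM, CDH1 and blood and neuron markers) come from the cell type marker list. Some genes that the rule names are not reported here. The promoters shown were chosen after values were seen.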

Additional observations from a re-analysis of the deposited data

Results flagged for a closer look

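The construct sequences lie outside the tested genes, and 5 of them had a signal in RasV12 above that in the libraries labelled T53D4, with every RasV12 library above every T53D4 library. The HRASV12 construct had a mean of 310.4 CPM in RasV12 and 20.8 in T53D4, a ratio of 14.9. The CCND1 construct had 2349.7 CPM in RasV12 and 146 in T53D4, a ratio of 16.1, and CDK4R24C had 2380.5 and 92.2, a ratio of 25.8, although the labels give both constructs to both lines. The murine p53DD construct had 111 CPM in RasV12 and 70.7 in T53D4, a ratio of 1.57, and TERT 1243.7 and 879, a ratio of 1.42. In the fit with construct rows kept, HRASV12, CCND1 and CDK4R24C were called higher in RasV12. The p53DD and TERT constructs were not called (edgeR, Benjamini-Hochberg adjusted p = 0.0852 and 0.0783). The construct values hold reads of the endogenous human genes where the sequences are the same, and their part in the gene differences was not tested.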

How the results depend on the processing

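With the replicate block, 2259 genes were called higher in RasV12 than in T53D4 in place of 1466 and 2607 lower in place of 1847, and 1464 and 1847 of the calls without the block were shared. Leaving out 1 library at a time gave 1083 to 1266 higher and 1410 to 1656 lower genes. DESeq2 gave 1769 and 2101, the 2 lines alone 1343 and 1672, no filter 1554 and 1803, and the strict filter 1321 and 1706. Against MekDD the block gave 1700 and 1888, and leaving out a library 620 to 920 and 698 to 996, with 620 higher in place of 975 without MekDD replicate 3 and 698 lower in place of 1133 without RasV12 replicate 2. Against AKTmyr leaving out a library gave 2023 to 2758 higher and 2225 to 2919 lower. Of 187 fold changes printed, 185 were called and 176 of these kept call and direction in every alternative. The uncalled difference of GPC4 from MekDD ranged from -0.68 to 0.30 when a library was left out, and its sign turned without MekDD replicate 3 (0.12) and RasV12 replicate 1. Of the counts of list members, 66 moved by more than 1.5 times under another setting and 760 did not, and 91 did and 617 did not when a library was left out. Apart from the block counts given beside the lists, the block took no call from the fold changes printed. The cause of these changes was not tested. With 3 libraries a line, 1 line per construct and a fit that recovered 62 of 100 simulated 2-fold changes, a gene without a call may still differ by this size or more. The simulated counts followed the trend of the spread over level and held no replicate effect. They do not give the share recovered among genes of wider spread.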
